A study of Mus musculus with 8 samples.

Results

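The period genes Per1, Per2 and Per3 and the cryptochrome genes Cry1 and Cry2 were followed over the day in the colonic epithelium of the mouse. They were chosen by name, as the rows of the deposited table that carry these symbols, and they are 5 of its 14247 genes. All 5 had a mean above the filter of 10 normalised counts, which left 13503 genes in the tests, and the lowest count of any member in any library was 136 reads, for Per3. The normalised count is the number of reads of a gene divided by 1 size factor for each library.

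The study sequenced RNA from colonic crypts of wild-type mice on a C57BL/6 background, 2 to 4 months old, that were kept under 12 h of light and 12 h of dark. Crypts were taken every 6 h, at ZT0, ZT6, ZT12 and ZT18. Zeitgeber time (ZT) counts hours from lights on, so that ZT0 and ZT6 belong to the resting phase of mice, ZT12 to the onset of the active phase and ZT18 to its middle. The groups hold 2 libraries each, called replicate 1 and replicate 2 after their labels, and all 4 groups had the genotype WT and no treatment in their labels. The labels do not say whether a library is 1 animal or a pool, and the study's captions for this time course give more mice per group than there are libraries per time point, so p-values measure the spread between these libraries, which may be technical. Crypts were freed with EDTA and scraped, with no sort, and the time course covered a single day at steps of 6 h, so that a peak between sampling times was fitted and not observed.

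PER and CRY proteins are the repressors of the circadian clock. CLOCK and BMAL1, the product of Arntl, bind E-boxes in the period and cryptochrome genes and switch them on, and PER and CRY proteins return to the nucleus as a complex and block that activity until they are degraded. Further loops act on the same genes, since the PAR bZIP factors DBP, TEF and HLF bind D-boxes, and REV-ERB repressors act on Cry1.

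The sequences before the starts of these genes are shown because the members peaked at different times, and because D-boxes are bound by DBP and TEF, whose genes were called rhythmic in the same libraries. RefSeq promoter windows on build GRCm38 were at hand for Per1, Per3, Cry1 and Cry2, and the 250 bases before each start were searched on both strands for the E-box CACGTG, for the E-prime box CACGTT, which reads AACGTG on the other strand, for the D-box TTATGNAA and for the cAMP response element TGACGTCA. The E-box and the E-prime box share all but their last letter, and no stretch can match both. Capitals mark the matches, each stretch runs 5′ to 3′ on the strand of its gene, and none holds an annotated exon. The stretches of Per3, Cry1 and Cry2 lie before the first exon of their gene, while that of Per1 lies inside the gene, in an intron of a longer annotated transcript and before an internal RefSeq start. The stretch of Per1 is chr11:69098768-69098947 on the plus strand, that of Per3 chr4:151044801-151044885, that of Cry1 chr10:85185094-85185148 and that of Cry2 chr2:92434215-92434250, the last 3 on the minus strand.
Per1: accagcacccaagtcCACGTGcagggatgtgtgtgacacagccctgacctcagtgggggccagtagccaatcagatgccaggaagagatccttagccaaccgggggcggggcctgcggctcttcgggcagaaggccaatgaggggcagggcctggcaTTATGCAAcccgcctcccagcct
Per3: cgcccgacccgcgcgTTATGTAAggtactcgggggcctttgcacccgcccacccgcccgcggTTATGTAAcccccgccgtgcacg
Cry1: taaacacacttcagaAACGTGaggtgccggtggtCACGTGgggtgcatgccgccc
Cry2: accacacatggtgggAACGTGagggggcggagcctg
Per1 held an E-box that began 166 bases before that start and a D-box that began 24 bases before it. A further start of Per1 had a window with no match. Per3 held a pair of D-boxes, at 205 and 158 bases, and no E-box in this window. Cry1 held an E-prime box at 79 bases and an E-box at 60 bases, and Cry2 an E-prime box at 166 bases. None of the 4 genes matched the cAMP response element in these windows. Of all 32817 RefSeq windows of 250 bases, 6.02% held the E-box, 3.85% the E-prime box, 3.07% the D-box and 1.55% the cAMP response element. These matches describe letters in a window and not sites in use.

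On GRCm38, annotated by GENCODE M21, Per1 spans chr11:69095217-69109960 on the plus strand. Per2 spans chr1:91415982-91459324, Per3 chr4:151003652-151044665, Cry1 chr10:85131700-85185064 and Cry2 chr2:92403646-92434043, all on the minus strand, and all 5 code for proteins. Their exons cover 5631 bp in Per1, 5856 bp in Per2, 9608 bp in Per3, 3340 bp in Cry1 and 6320 bp in Cry2. The span of Per3 overlaps that of Camta1 on the same strand, and Per3 shares 0 bp of exon with it. Cry2 shares 295 bp of exon, 4.67% of its own, with D930015M05Rik on the other strand, and whether reads were counted by strand is not stated, so that reads from these bases cannot be assigned to either gene.

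The 8 libraries held between 14722342 and 25159440 reads. For the members the counting error of a library, as a CV from its reads, was 2.18% to 7.59% per time point, and the CV between the libraries was larger in 17 of 20 pairs of libraries, the others being Per1 and Per3 at ZT18 and Cry2 at ZT12. The 9 epithelial markers, among them Epcam and Cdh1, were found in every library, with summed levels within 1.37-fold of each other, as the label of colonic epithelial cells calls for. RNA of other cells varied more. The 7 fibroblast markers summed to between 3.22 and 672.5 normalised counts at ZT0, ZT6 and ZT18 and to 2480.3 and 149.9 at ZT12, and of 7 smooth muscle markers the 6 in the table summed to between 187.4 and 404.8 at those times and to 3961 and 440.4 at ZT12, replicate 1 before replicate 2. ZT18 replicate 2 had 6 of the 7 fibroblast markers at 0, and ZT12 replicate 1 had none of them at 0. The sum of the 6 markers of B and plasma cells in the table was 1863 normalised counts in ZT0 replicate 2 and 117.4 to 972.8 in the other libraries. The mitochondrial genome took 6.68% and 7.85% of the normalised counts at ZT12 and between 9.80% and 22.2% at the other times. The part of these differences in the results below was not tested. Values without ZT12 replicate 1, without ZT0 replicate 2 or without both are given beside some of the results that rest on them. The comparison of members in pairs was not run with both left out. In bulk libraries, fewer cells of a type and less RNA per cell cannot be told apart.

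Per3, the period gene with the widest range over the day, reached 1784 and 1341 normalised counts in the ZT12 libraries. It stood at 480.2 and 469.7 in those of ZT18, at 238.4 and 126.9 in those of ZT0 and at 457.1 and 419.9 in those of ZT6. Both ZT12 libraries stood far above the other 6, both ZT0 libraries lay below all others, and ZT6 and ZT18 were close to each other. The mean at ZT12 was 1562 ± 313.1 (SD, n = 2) and that at ZT0 182.6 ± 78.9 (SD, n = 2), a ratio of 8.55.

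Per1, whose product is a repressor like PER2 and whose gene also answers to hormones and cAMP in many tissues, started the day at 392.3 and 264.9 normalised counts (ZT0), stayed at 337.6 and 402.5 (ZT6), reached 1570.2 and 1170.2 (ZT12) and came back to 574.2 and 563.0 (ZT18). It was highest in both ZT12 libraries and next in both ZT18 libraries, while ZT0 and ZT6 overlapped. The means ran from 328.6 ± 90.1 (SD, n = 2) at ZT0 to 1370.2 ± 282.8 (SD, n = 2) at ZT12, a ratio of 4.17.

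Per2, which with Per1 carries the core function of the period genes in the clock, was lowest in the ZT6 libraries, at 411.5 and 302.4 normalised counts. The libraries of ZT12 gave 2068.3 and 1692, those of ZT18 1599 and 1923, and those of ZT0 486.7 and 716.3. Unlike in Per1 and Per3, the libraries of ZT12 and ZT18 overlapped, and all 4 of them lay above all of ZT0 and ZT6. The ratio of the highest mean, 1880.4 ± 265.7 (SD, n = 2) at ZT12, to the lowest, 357.0 ± 77.1 (SD, n = 2) at ZT6, was 5.27.

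Cry1, the cryptochrome whose product represses late in the cycle, was highest in the ZT18 libraries, with 1137 and 1239 normalised counts. The ZT0 pair followed with 934.7 and 862.8, then the ZT12 pair with 418.5 and 480.8 and the ZT6 pair with 264.9 and 312.2. The 4 time points did not overlap, and the order was ZT18, ZT0, ZT12 and ZT6. The ZT18 mean of 1188 ± 72.2 (SD, n = 2) was 4.12 times the ZT6 mean of 288.6 ± 33.5 (SD, n = 2).

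Cry2, the paralogue of Cry1, gave 936.3 and 924.6 normalised counts in the ZT12 libraries and 1029 and 837.3 in those of ZT18. In the resting phase it gave 461.9 and 657.6 (ZT0) and 508.8 and 561.4 (ZT6). All 4 libraries of ZT12 and ZT18 were above all 4 of ZT0 and ZT6, and within each of these sets the time points overlapped. Its range was the smallest of the members, with 1.74 between the ZT18 mean of 933.0 ± 135.4 (SD, n = 2) and the ZT6 mean of 535.1 ± 37.1 (SD, n = 2).

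**Figure D1:**
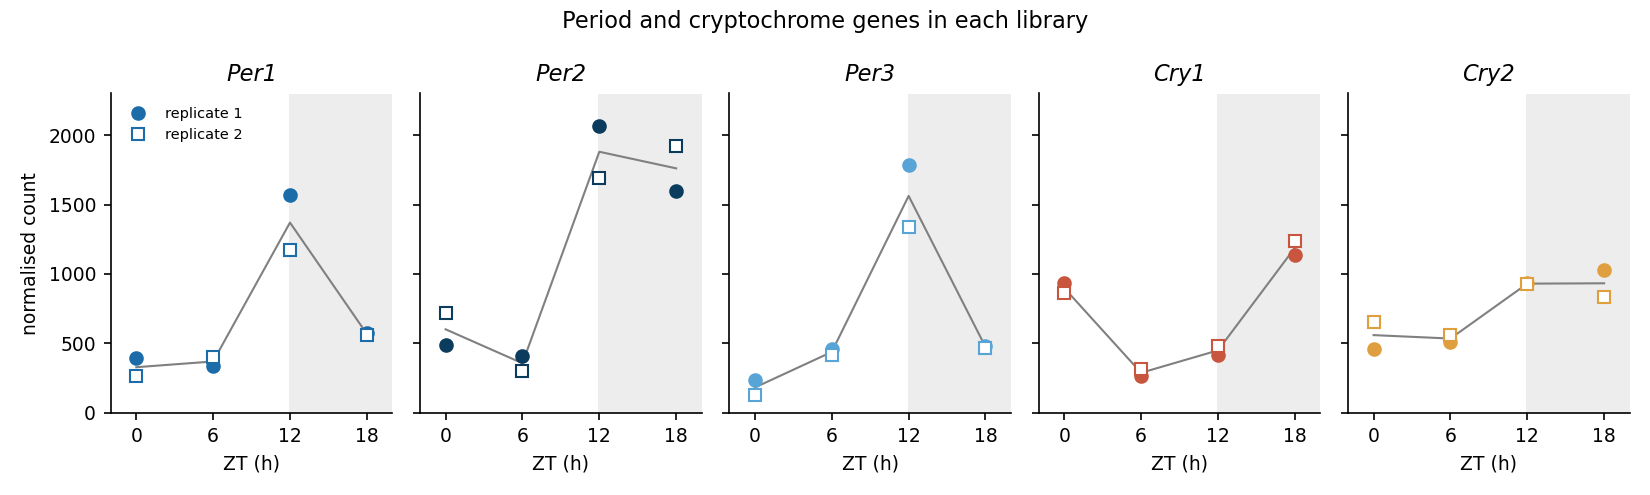
Normalised count of each member in each of the 8 libraries against zeitgeber time in hours, with filled circles for replicate 1, open squares for replicate 2, a grey line through the means and grey shading from ZT12 on. Per1 and Per3 peak at ZT12 alone, Per2 is high at ZT12 and ZT18, Cry1 is high at ZT18 and ZT0, and Cry2 moves least.

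To ask whether each member followed a 24 h rhythm, a cosine and a sine term were fitted with limma to log2(normalised count + 1) of all genes, and genes under a Benjamini-Hochberg adjusted p of 0.05 over the 13503 genes were called. Per3, Per2 and Cry1 were called, 3 of 5 members, where 16 of 13503 genes or 0.118% were called in all. The amplitude, which is the distance from mean to peak on the log2 scale, was 1.57 ± 0.15 (SE) for Per3, 1.42 ± 0.15 for Per2 and 1.14 ± 0.09 for Cry1, with limma adjusted p-values of 0.00438, 0.0123 and 0.00263. Per1 had an amplitude of 1.08 ± 0.17 (SE) at an adjusted p of 0.142 in the same limma fit, and Cry2 one of 0.55 ± 0.10 at an adjusted p of 0.271, so that neither was called.

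The fitted peaks ran in the order Per3, Per1, Cry2, Per2 and Cry1. Per3 peaked at ZT 12.1 ± 0.35 h (SE), Per1 at 13.1 ± 0.58 h, Cry2 at 15.1 ± 0.71 h, Per2 at 15.6 ± 0.40 h and Cry1 at 19.7 ± 0.31 h. The fitted peaks of Per3 and Per1 thus lay near the start of the active phase, those of Cry2 and Per2 later and that of Cry1 last. Most neighbours in this order were not told apart by the intervals of the pair comparison below. The difference in peak time ran from -0.33 to 2.29 h for Per3 and Per1. It ran from -0.80 to 4.77 h for Per1 and Cry2, so Cry2 was not shown to peak later than Per1. For Cry2 and Per2 it ran from -1.34 to 2.37 h, and for Per2 and Cry1 from 2.73 to 5.52 h. A swing from trough to peak of the fitted curve came to 8.86-fold in Per3, 7.19-fold in Per2, 4.83-fold in Cry1, 4.47-fold in Per1 and 2.14-fold in Cry2. For scale, the median amplitude of all genes tested was 0.23, and the members ranked 197 (Per3), 286 (Per2), 534 (Cry1), 598 (Per1) and 2111 (Cry2) by amplitude among the 13503 genes. This order of peaks was found in all 20 other settings, of which 16 could move a fitted peak, but Per2 followed Cry2 by only 0.025 h without ZT0 replicate 1, so their order is not beyond the error. The order of amplitudes was found in 17 of the 20. Per2 was above Per3 without ZT0 replicate 2, also when ZT12 replicate 1 was left out with it. Per1 was above Cry1 without ZT0 replicate 1. For all neighbours in the order of amplitudes, the interval of the amplitude difference had ends of opposite sign, so that order is not beyond the error either.

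**Figure D2:**
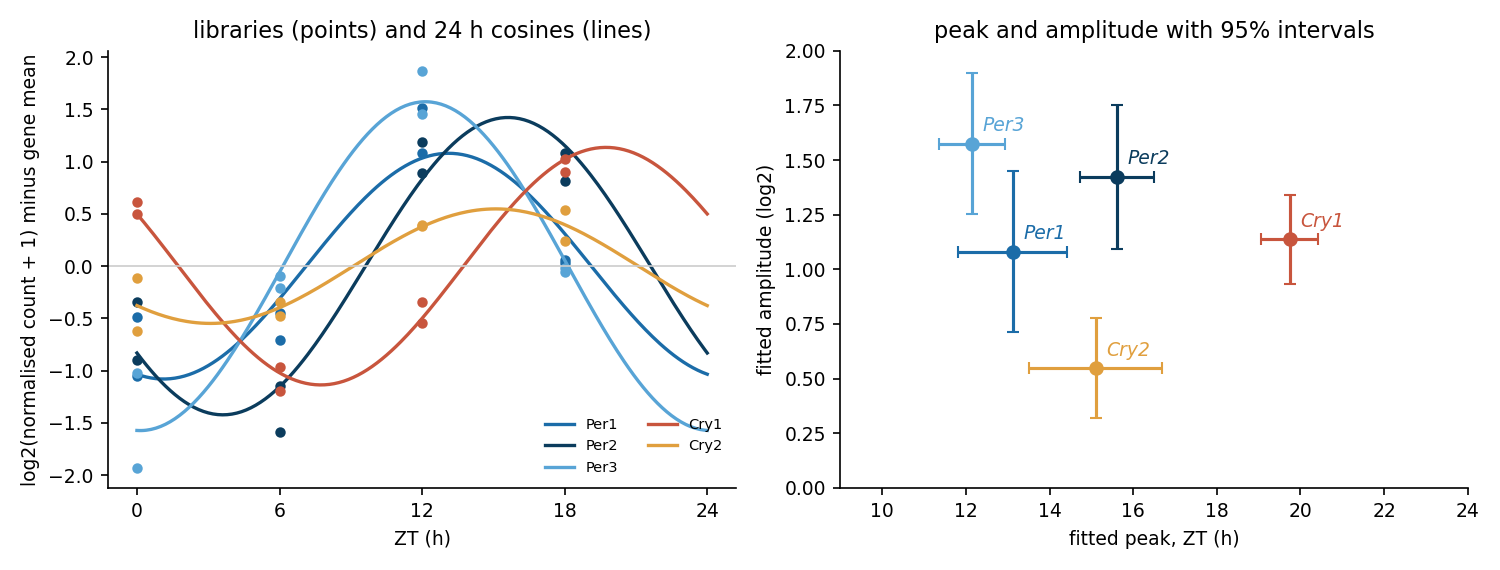
Left, log2(normalised count + 1) minus the mean of the gene in each library (points) with the fitted 24 h cosine (lines) against zeitgeber time in hours. Right, fitted peak time in hours against fitted amplitude on the log2 scale, with 95% intervals of the limma fit. Cry1 stands alone at 19.7 h, the period genes lie between 12.1 and 15.6 h, and Cry2 has the lowest amplitude, 0.55.

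The calls rested on few libraries, and the amplitudes of Per3 and Per1 moved with them. With 1 library left out the amplitude of Per3 ran from 1.43 (without ZT0 replicate 2) to 1.79 (without ZT0 replicate 1), that of Per1 from 0.90 (without ZT12 replicate 1) to 1.29 (without ZT0 replicate 1), and that of Cry1 from 1.07 to 1.18. Without ZT12 replicate 2, limma called Cry1 alone (adjusted p = 0.0156), with Per3 at 0.0806 and Per2 at 0.0895. Without ZT12 replicate 1, the library richest in fibroblast and smooth muscle markers, the amplitude of Per3 was 1.45 ± 0.17 (SE), that of Per1 0.90 ± 0.17 and that of Cry1 1.13 ± 0.10, and the same 3 members were called. With ZT0 replicate 2 left out as well, Per3 had an amplitude of 1.24 ± 0.16 (SE) and a limma adjusted p of 0.124, Per1 had 0.85 ± 0.20, and Per2 and Cry1 stayed called. The test of DESeq2 on the recovered reads called all 5 members and 184 genes in all, and limma without a trend in the variance called 0 members and 1 gene.

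With a mean for each time point in place of a cosine, the limma F-test over the 4 time points called Cry1 (adjusted p = 0.0144), Per2 (0.0148) and Per3 (0.0211), where 12 of 13503 genes or 0.0889% were called. Per1 had an adjusted p of 0.0590 and Cry2 of 0.540 in this limma test. Leaving out ZT6 replicate 1, ZT6 replicate 2 or ZT12 replicate 2 brought the members called to 0, and leaving out ZT12 replicate 1 brought them to 1. With ZT0 replicate 2 left out as well, 0 members were called.

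The course from one time point to the next was read from the contrasts of the same limma fit, as log2 differences. From ZT0 to ZT6 Cry1 fell by 1.64 ± 0.19 (SE, adjusted p = 0.0264). It was the only member called, against 6 of 13503 genes or 0.0444%, and the libraries of 3 of 5 members did not overlap, where 37.6% of all genes did not. Per3 differed by 1.33 ± 0.29 and Per2 by -0.74 ± 0.25 at unadjusted p-values of 0.00143 and 0.0146 in limma, neither of which passed. For Per1 the 95% interval of the difference ran from -0.36 to 0.75 and for Cry2 from -0.53 to 0.44. Leaving out any library of ZT0, ZT6 or ZT12 took the Cry1 call away, with differences between -1.76 and -1.52. Without both ZT12 replicate 1 and ZT0 replicate 2, 0 members were called.

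From ZT6 to ZT12 all 5 members were higher and none of their libraries overlapped, which held for 45.7% of all genes. Per2 differed by 2.40 ± 0.25 (SE), Per1 by 1.88 ± 0.25 and Per3 by 1.82 ± 0.29, and Cry2 and Cry1 by 0.80 ± 0.22 and 0.64 ± 0.19. The smallest limma adjusted p was that of Per2, 0.0543, so that 0 members and 0 of all genes were called, while 5 members had an unadjusted p under 0.05. In this contrast edgeR called 0 members and DESeq2 called 3. Without ZT0 replicate 2, which is in neither time point but shares the estimate of the spread, limma called 3 members, and without ZT0 replicate 1 or either ZT18 library it called Per2 alone, the difference of 2.40 staying the same.

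Against ZT0, ZT12 was the time of the largest differences for Per3 and Per1. Per3 rose by 3.14 ± 0.29 (SE, limma adjusted p = 0.00557) and Per1 by 2.07 ± 0.25 (limma adjusted p = 0.0269), 2 members called against 9 of 13503 genes or 0.0667%. Per2 differed by 1.66 ± 0.25 and Cry1 by -1.0 ± 0.19, at limma adjusted p-values of 0.0717 and 0.183. The libraries of all 5 members did not overlap, as those of 41.1% of all genes. Without either ZT12 library 0 members were called, with Per3 differing by 2.94 without replicate 1 and by 3.35 without replicate 2, and without ZT0 replicate 2 or either ZT6 library Per3 alone was called. Per3 differed by 2.49 and Per1 by 1.57 when both ZT12 replicate 1 and ZT0 replicate 2 were left out, and 0 members were called.

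From ZT12 to ZT18 the members parted. Per3 differed by -1.70 ± 0.29 (SE) and Per1 by -1.25 ± 0.25, Cry1 by 1.40 ± 0.19, and Per2 and Cry2 lay within intervals around 0, from -0.65 to 0.46 and from -0.49 to 0.48. The libraries of 3 of 5 members did not overlap, where 36.4% of all genes did not. No member was called by limma in this contrast, the smallest adjusted p being 0.0746 for Cry1, while 4 genes or 0.0296% were called in all. The count of members was 3 at an unadjusted p under 0.05, 0 with edgeR and 3 with DESeq2. With ZT12 replicate 1 left out, Per3 differed by -1.50, Per1 by -1.04 and Cry1 by 1.30.

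Between ZT6 and ZT18, 12 h apart, Cry1 rose by 2.04 ± 0.19 (SE, limma adjusted p = 0.00722) and Per2 by 2.31 ± 0.25 (limma adjusted p = 0.0151), 2 members called against 6 of 13503 genes or 0.0444%. Per3 had nearly the same level at these times, with a difference of 0.12 ± 0.29 and an interval from -0.55 to 0.78. All 5 members had libraries that did not overlap, as had 38.0% of all genes. Without either ZT6 library 0 members were called, and without any library of ZT12 or ZT18 only Cry1 was called. With ZT12 replicate 1 and ZT0 replicate 2 both left out, 0 members were called.

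Between ZT0 and ZT18, 0 members and 0 genes were called by limma, 4 members had an unadjusted p under 0.05, edgeR called 0 members and DESeq2 called 2. All 5 members were higher at ZT18 with no overlap of libraries, where 27.5% of all genes did not overlap. The differences were 1.57 ± 0.25 (SE) in Per2, 1.44 ± 0.29 in Per3, 0.82 ± 0.25 in Per1, 0.75 ± 0.22 in Cry2 and 0.40 ± 0.19 in Cry1. Without ZT0 replicate 2 those of Per3 and Per1 were smaller, at 0.99 and 0.53, and those of Per2 and Cry2 larger, at 1.85 and 1.01.

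Whether a cosine describes the 4 means was tested by a contrast of ZT0 and ZT12 against ZT6 and ZT18. By limma 0 members and 0 of 13503 genes departed from a cosine. EdgeR and DESeq2 called 0 members as well, with 0 and 29 genes in all. Before adjustment 2 members and 502 of 13503 genes had a limma p under 0.05. The members were Per1 with a departure of 0.53 ± 0.17 (SE) and Per2 with 0.42 ± 0.17, both at a limma adjusted p of 0.988.

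The study tested rhythms by ranks, with JTK, and a test of that kind was run by exact enumeration. The exact p was 0.0190 for Per3 and for Cry1, the smallest that 8 values can give here. It was 0.0571 for Per1 and 0.114 for Per2 and for Cry2, whose best orders peaked between sampling times, where 0.114 is the smallest exact p. Of all 13503 genes, 278 or 2.06% had an exact p under 0.05, and none passed after adjustment (adjusted p = 0.877 for the members in this exact test). Leaving out any library but ZT6 replicate 1 left 1 member under 0.05.

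Members were then compared in pairs, through the log2 ratio of each pair within a library, which does not depend on how libraries are scaled. The cosine F of the ratio was set against all ways to allocate the libraries to the time points, for 10 pairs, with p-values adjusted over the 10. The exact p of a pair covers amplitude and peak time together, and neither was tested alone by permutation. The rhythms differed in 9 of 10 pairs. The smallest exact p that this design can give is 0.00317 (adjusted p = 0.0159), and it was reached by Cry1 with Per3 and by Cry1 with Per1. The log2 ratio of Per3 to Cry1 was 2.09 and 1.48 in the ZT12 libraries, -1.24 and -1.40 in those of ZT18, -1.97 and -2.76 in those of ZT0 and 0.78 and 0.43 in those of ZT6. Per3 was thus below Cry1 at ZT0 and ZT18 and above it at ZT6 and ZT12 on the scale of normalised counts. Cry1 peaked 7.60 ± 0.48 h (SE) after Per3, with a 95% interval from 6.36 to 8.84 h.

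Cry1 peaked 6.62 ± 0.78 h (SE) after Per1 and 4.12 ± 0.54 h after Per2, and its rhythm differed from that of Per2 with an exact permutation p of 0.00952 (adjusted p = 0.0238). The cryptochromes differed from each other in both respects. Cry1 peaked 4.64 ± 0.72 h after Cry2, with a 95% interval from 2.78 to 6.50 h, and its amplitude was higher by 0.59 ± 0.12, with an exact permutation p of 0.0127 for the pair (adjusted p = 0.0254). The log2 ratio of Cry1 to Cry2 was 0.14 and 0.57 (ZT18), 1.02 and 0.39 (ZT0), -0.94 and -0.84 (ZT6) and -1.16 and -0.94 (ZT12), so that its sign was shared by the libraries of each time point.

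Among the period genes Per2 was the late member. Per2 peaked 3.48 ± 0.65 h (SE) after Per3, with an interval from 1.81 to 5.14 h (exact permutation p = 0.0222 for the pair, adjusted p = 0.0317). It peaked 2.50 ± 0.75 h after Per1, with an interval from 0.58 to 4.42 h (exact permutation p = 0.0317 for the pair, adjusted p = 0.0353). These calls were less stable than those with Cry1. Of 12 other settings for the pairs, 7 lost the call of Per2 with Per3 and 8 that of Per2 with Per1. The call of Per1 with Per3 was lost in 5 of them and that of Per2 with Cry2 in 4. The call of Cry1 with each period gene was lost in 1 of the 12. The amplitude of Per3 was higher than that of Per1 by 0.49 ± 0.14, with an interval from 0.13 to 0.86. Their peak times lay 0.98 h apart with an interval from -0.33 to 2.29 h. The exact permutation p for this pair was 0.0254 (adjusted p = 0.0317). The log2 ratio of Per1 to Per3 was 0.72 and 1.06 (ZT0), -0.44 and -0.06 (ZT6), -0.18 and -0.20 (ZT12) and 0.26 and 0.26 (ZT18), so that on the scale of normalised counts Per1 was above Per3 in the libraries of ZT0 and ZT18 and below it in those of ZT6 and ZT12.

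Cry2 had its fitted peak nearest to that of Per2, and the interval of the difference held 0 with Per2 and with Per1 alike. The peaks of Cry2 and Per2 were 0.52 ± 0.72 h (SE) apart, with an interval from -1.34 to 2.37 h. The amplitude of Per2 was higher by 0.87 ± 0.18 (exact permutation p = 0.0254 for the pair, adjusted p = 0.0317). Cry2 peaked 2.96 ± 0.94 h after Per3, with a lower amplitude by 1.03 ± 0.23 (exact permutation p = 0.00635 for the pair, adjusted p = 0.0212). Cry2 and Per1 were the pair that was not called (exact permutation p = 0.0825, adjusted p = 0.0825), with a difference in peak time of 1.98 h whose interval ran from -0.80 to 4.77 h, wide enough to hold several hours in 1 direction. The interval of the difference held no 0 in 7 of 10 pairs for peak time and in 4 of 10 for amplitude. Without replicate 2 of ZT6, ZT12 or ZT18, 5 of 10 pairs were called.

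**Figure D3:**
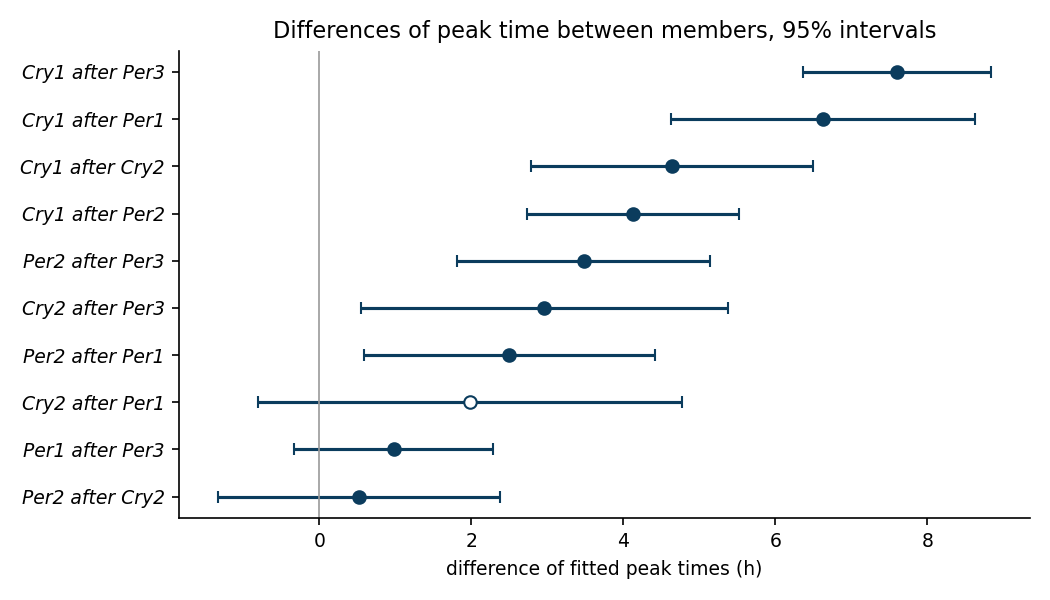
Difference between the fitted peak times of each pair of members in hours, as points with 95% intervals from the residual covariance on 5 degrees of freedom. Filled points mark the 9 pairs whose rhythms differed in the exact permutation test on the log2 ratio (adjusted p under 0.05), and the open point marks Cry2 with Per1. The 4 pairs with Cry1 lie from 4.12 to 7.60 h.

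To compare levels between genes, normalised counts were divided by the exon length in kb. At ZT0 Cry1 had 269.1 ± 15.2 per kb (SD, n = 2), against 102.7 ± 27.7 for Per2, 88.6 ± 21.9 for Cry2, 58.4 ± 16.0 for Per1 and 19.0 ± 8.21 for Per3, a 14.2-fold span. At ZT6 the levels per kb came together within 1.89-fold, from 45.6 ± 2.73 for Per3 to 86.4 ± 10.02 for Cry1. At ZT12 the period genes led, with Per2 at 321.1 ± 45.4 per kb, Per1 at 243.3 ± 50.2 and Per3 at 162.6 ± 32.6, above Cry2 at 147.2 ± 1.30 and Cry1 at 134.6 ± 13.2. In ZT12 replicate 2 Per3 stood at 140 per kb, below both cryptochromes, so that its place in that order is not beyond the spread. At ZT18 Cry1 at 355.8 ± 21.6 per kb and Per2 at 300.7 ± 39.2 were highest, and Per3 at 49.4 ± 0.77 was lowest.

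The sum of the 5 genes per kb was lowest at ZT6, with 343.4 ± 8.15 (SD, n = 2), and came to 537.7 ± 10.2 at ZT0, 1009 ± 116.3 at ZT12 and 954.5 ± 37.2 at ZT18. The time points ZT12 and ZT18 overlapped, since ZT12 replicate 2, at 926.6, lay below both ZT18 libraries, at 928.2 and 980.8, and ZT12 replicate 1, at 1091, above them. The ratio of period to cryptochrome transcripts per kb was highest in the ZT12 libraries, at 2.99 and 2.19, and lowest in those of ZT0, at 0.503 and 0.504. In between, the ZT6 libraries had 1.11 and 0.915 and the ZT18 libraries 0.844 and 0.948. The cryptochromes were ahead in all 4 libraries of ZT0 and ZT18 and the periods in both ZT12 libraries, while the ZT6 libraries fell on either side of 1. Within the cryptochromes, the ratio of Cry1 to Cry2 per kb was 3.83 and 2.48 (ZT0), 0.985 and 1.05 (ZT6), 0.846 and 0.984 (ZT12) and 2.09 and 2.80 (ZT18). Per3 made up 17.0% and 15.1% of the sum at ZT12 and 4.68% and 2.42% at ZT0. Lengths were taken over all annotated exons, so levels of genes with long, rarely used exons are understated.

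**Figure D4:**
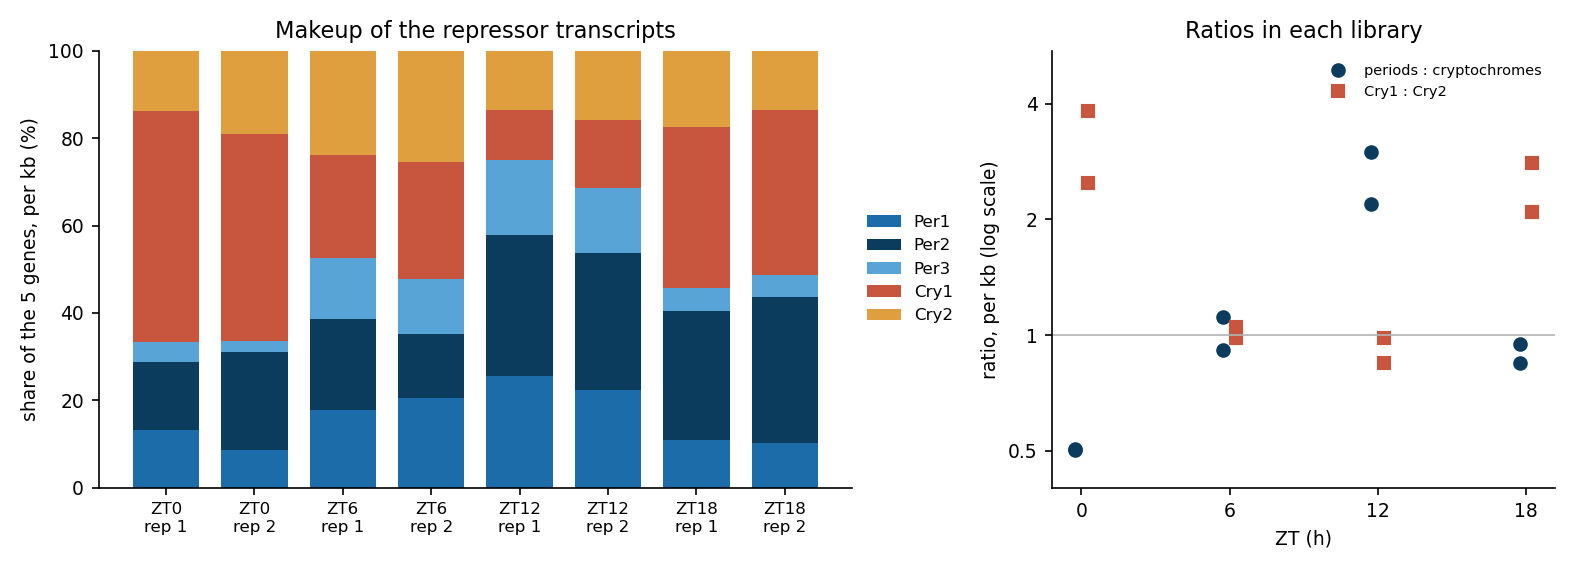
Left, the share of each member in the summed normalised counts per kb of the 5 genes, in percent, for each library. Right, the ratio of summed period to summed cryptochrome levels (circles) and of Cry1 to Cry2 (squares) per kb on a log axis against zeitgeber time in hours, 1 point per library. The period to cryptochrome ratio is 0.503 and 0.504 at ZT0 and 2.99 and 2.19 at ZT12, and Cry1 exceeds Cry2 at least 2.09-fold at ZT0 and ZT18.

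Other genes of the pathway were taken from lists written out by role, 39 genes of which 35 were tested. The limma cosine fit called 6 of the 35, against 0.118% of all genes, and the median amplitude of the 35 was 0.30, where that of all genes was 0.23 and that of the 5 members 1.14. The lists and the members were chosen with results of these data known, so these counts are descriptions.

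Among the activators, 0 of 3 were called by limma, and 2 of 3 had an unadjusted limma p under 0.05, as had 1235 of 13503 genes. Arntl, which encodes BMAL1, ran opposite to Per3 and Per1, from a mean of 1318 normalised counts at ZT0 to one of 368.2 at ZT12. Its means were 617.9 at ZT6 and 724.0 at ZT18. Arntl had a fitted peak at ZT 23.5 h and an amplitude of 0.92 ± 0.13 (SE), and was not called (limma adjusted p = 0.0831). Per3 peaked 0.61 h and Per1 1.59 h after the fitted trough of Arntl at ZT 11.5 h. Cry2 followed that trough by 3.57 h, Per2 by 4.09 h and Cry1 by 8.21 h.

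Of 8 nuclear receptors and bZIP factors of the interlocked loops, 6 were tested and 4 were called. They were Dbp, the D-box activator, with an amplitude of 3.07 ± 0.14 (SE) and a peak at ZT 10.6 h (limma adjusted p = 4.01e-05), Tef with 1.78 ± 0.16 at 12.2 h (0.00438), and Nr1d1 and Nr1d2, which encode the REV-ERB repressors, with 2.17 ± 0.16 at 8.80 h and 1.63 ± 0.13 at 10.9 h (0.00238 for both). The fitted peaks of the REV-ERB genes and Dbp came before those of every member, and that of Tef lay beside that of Per3. Differences between these peaks and those of the members were not tested. Nr1d2 and Dbp had their highest means at ZT12, as did Per3 and Per1. Of 7 other repressors, 6 were tested and 2 were called, Ciart, which encodes a repressor of CLOCK and BMAL1, with 2.36 ± 0.22 at 11.1 h (limma adjusted p = 0.00438) and Cipc, which encodes a CLOCK-interacting repressor, with 0.69 ± 0.08 at 12.03 h (0.0320). Neither the 12 tested kinases, ligases and deubiquitinases that act on PER or CRY proteins nor the 8 inputs to the period genes held a called gene. Their median amplitudes were 0.12 and 0.27, and 2 and 3 of them had an unadjusted limma p under 0.05, where 1235 of 13503 genes had one.

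**Figure D5:**
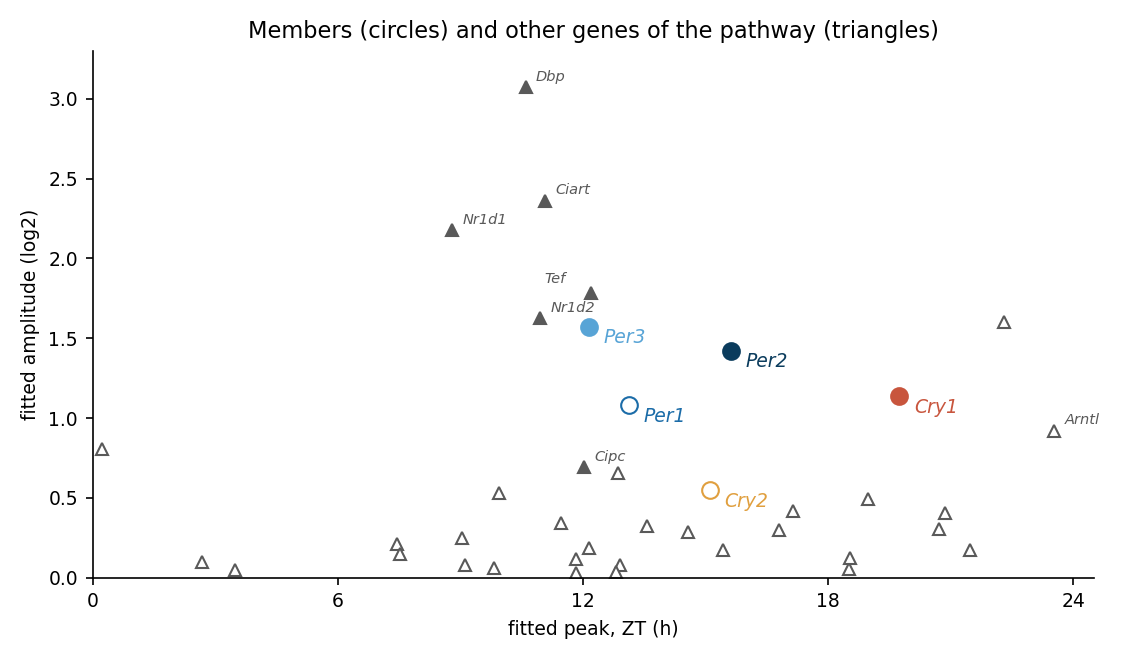
Fitted peak time in hours against fitted amplitude on the log2 scale for the members (circles) and the 35 tested genes of the pathway lists (triangles), filled where the limma cosine fit called the gene. Named triangles are the called genes and Arntl. Dbp, at 3.07, lies above every member, and Per3, Tef and Cipc share a peak near ZT 12 h.

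The genes most like each member over the 8 libraries were ranked by Pearson's r of log2 values, as a description, since all points share their libraries and their depth. For Per1 they were Ankrd12 (r = 0.99), Zfp110 (0.98) and Atl3 (0.97), and Mroh2a ran most opposite (-0.99). For Per2 they were Fndc3a (0.99), Ptk2b (0.97) and Ttc9c (0.96), with Hsbp1l1 opposite (-0.95). For Per3 they were Abhd2 (0.97), Ppp1cb (0.97) and Os9 (0.96), with Cyhr1 opposite (-0.97). For Cry1 they were Rin3 (0.97), Stip1 (0.97) and Tppp (0.96), with Casp1 opposite (-0.98), and Tppp was the only one of these neighbours that the limma cosine fit called (adjusted p = 0.0395, amplitude 0.85, peak at ZT 19.8 h). For Cry2 they were Kpna4 (0.98), Xpc (0.97) and Gm20275 (0.94), with Reps2 opposite (-0.98). Among the members themselves, Per1 and Per3 were the most alike (r = 0.93) and then Per2 and Cry2 (0.91), while Cry1 had an r between -0.39 and 0.45 with the other members. Most neighbours had small amplitudes, from 0.15 in Os9 and Ppp1cb to 0.85 in Tppp among the genes named as most like.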

How the data were processed

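Total RNA of colonic crypts was sequenced as paired-end reads. According to the methods, the authors aligned the reads to GRCm38 with STAR and used DESeq2. The submitters' processing notes name GRCm38 and mm10, and read counting, strand use and annotation are not given in the sources used here. The labels and the methods name different library kits. The authors deposited 1 table of 14247 genes, with a signal per library, the read count divided by 1 size factor, called the normalised count here. The authors also deposited their own log2 fold changes, test scores and p-values, for a contrast that the header does not name, and these were not used. In every library 100% of the values were multiples of a single step, within 0.01 of a whole number of reads, so reads were recovered. For ZT0 replicate 1 the value of 1 read was 0.993 normalised counts, close to 1, where whole reads are harder to tell from rounding. No row lacked a gene name, and 14239 of 14247 identifiers matched GENCODE M21. No gene in the table averaged under 6.55 normalised counts.

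The main model was limma 3.58.1 in R 4.3.3 (lmFit, eBayes with a trend) on log2(normalised count + 1), which understates changes of low genes. Genes with a mean under 10 were left out, 13503 remained, and all 8 libraries entered 1 fit. It gave a 24 h cosine F-test, an F-test over 4 time points, 6 contrasts and the departure from a cosine, adjusted by the Benjamini-Hochberg method within each. Standard errors of peak times came from the delta method. The exact permutation test of pairs and the two-sided exact rank test used numpy and scipy. edgeR 4.0.16 and DESeq2 1.42.0 ran on recovered reads as alternatives. Other alternatives were pseudocounts of 0.1 and 5, no filter, a mean of at least 50, TMM, quantile and non-mitochondrial scaling, no trend, a replicate block and leaving out libraries. The code was tested on simulated counts. Intervals cover the spread between libraries.

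The members, the gene lists, the motifs and the tests were chosen with earlier results of these data known. Genes named are the 5 members, pathway genes that the cosine fit called, Arntl, and for each member the 3 genes with the highest and the 1 with the lowest Pearson r. A gene of the pathway lists is not reported here and is left out of their counts. Overlapping neighbours and marker genes are named beside the results they touch. T cell, myeloid, endothelial and neuronal marker lists were also summed: T cell markers were highest in ZT18 replicate 2 (168.9 normalised counts), myeloid markers in ZT0 replicate 2 (1885), endothelial markers in ZT12 replicate 1 (410.1), with 3 of 5 in the table, and neuronal and glial markers in ZT6 replicate 1 (55.4), with 2 of 5 in the table.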

Additional observations from a re-analysis of the deposited data

How the results depend on the processing

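The part of depth in these calls was not tested. With 1 library left out, limma called 1 to 3 members by the cosine, 0 to 3 over the 4 time points and, in the contrasts, 0 to 1 (ZT6/ZT0), 0 to 3 (ZT12/ZT6), 0 to 2 (ZT12/ZT0) and 0 to 2 (ZT18/ZT6). The pairs called numbered 5 to 10, and 1 to 2 members were under 0.05 in the rank test. Limma without a variance trend called 0 by the cosine, 0 over the 4 time points, and 0 in ZT6/ZT0, ZT12/ZT0 and ZT18/ZT6. DESeq2 called 5 by the cosine, 5 over the 4 time points, 2 in ZT6/ZT0, 3 in ZT12/ZT6, 3 in ZT18/ZT12, 2 in ZT18/ZT0 and 4 in ZT12/ZT0. Over all genes DESeq2 called 25, 43, 99, 55 and 121 in these contrasts, in the same order. EdgeR called 1 in ZT12/ZT0, with 5 genes in all, and limma with no filter called 1 in ZT12/ZT6, with 1 gene in all. Limma on only the 4 libraries of the 2 time points called 0 in ZT6/ZT0, 3 in ZT12/ZT6, 0 in ZT12/ZT0 and 0 in ZT18/ZT6. Without both ZT12 replicate 1 and ZT0 replicate 2, it called 0 over the 4 time points and 0 in ZT6/ZT0, ZT12/ZT0 and ZT18/ZT6. Over all genes, the 16 cosine calls became 184 with DESeq2, 1 without a trend and 6 to 18 with 1 library left out, and the 12 calls over the 4 time points became 217, 2 and 1 to 16. The cause of these changes was not tested, apart from the fewer libraries in some fits.

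Deviations of libraries with the same replicate number correlated between -0.29 and 0.22, which gave no sign that the numbers pair the libraries. Whether libraries with the same number shared a batch was not tested. With a replicate block, limma called 3 members by the cosine and 0 in ZT6/ZT0, and the exact test, with fewer ways to allocate libraries within a block, called 0 of 10 pairs where 9 were called without it.

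Some small log2 differences, none of them called, turned in sign. Per1 ZT6/ZT0 was 0.19, -0.090 without ZT0 replicate 2 or without that library and ZT12 replicate 1, and up to 0.48 with 1 library left out. Per2 ZT18/ZT12 was -0.09, 0.051 without ZT12 replicate 1 or without that library and ZT0 replicate 2, 0.040 without ZT18 replicate 1, and down to -0.24 with 1 library left out. Cry2 ZT6/ZT0 was -0.04, ran from -0.30 to 0.21 with 1 library left out, and was 0.21 without ZT12 replicate 1 and ZT0 replicate 2. Cry2 ZT18/ZT12 was 0.00429 with TMM, 0.00386 with DESeq2 and 0.00533 without those libraries, and ran from -0.15 to 0.14 with 1 library left out. Of 1158 values recomputed, 985 kept their direction and their side of the threshold. For counts this meant staying within 1.5 times, and for peak times a shift of less than 1 SE. Many of these values belong to differences that were not called. Of 21 settings, the call was lost in 10 for Cry1 ZT6/ZT0 and in 9 for Per1 ZT12/ZT0 and for Per2 ZT18/ZT6. It was lost in 5 for Per3 ZT12/ZT0 and for Cry1 ZT18/ZT6.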
